A study of Mus musculus with 10 samples.

Results

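The axon guidance ligands and receptors are the genes of the semaphorin, plexin, neuropilin, ephrin, Eph, Slit, Robo, netrin, Unc5 and Dcc families. The rule for them reads gene names and no measured value, although these families were picked with earlier results of these data known. Of 24391 gene names in the count data, 69 met the name rule: 7 secreted semaphorins, 13 membrane semaphorins, 9 plexins, 2 neuropilins, 8 ephrins, 9 EphA receptors, 5 EphB receptors, 3 Slits, 4 Robo receptors, 4 netrins and 5 netrin receptors (the Unc5 genes and Dcc). The data are RNA sequencing of whole bilateral hippocampus, with 1 library per mouse. The 10 mice were male, aged 10 to 14 weeks and of a strain that the methods print as C56BL/6J. No drug treatment is described beyond isoflurane anesthesia for surgery, and whether Naive mice were anesthetized is not stated. SAH mice (n = 4, animals 1 to 4) received a subarachnoid hemorrhage by perforating the Circle of Willis on 1 side with a filament passed up the internal carotid artery, and were kept for study only where cerebral blood flow dropped at perforation. Sham mice (n = 3, animals 5 to 7) had the filament surgery without a puncture, and Naive mice (n = 3, animals 8 to 10) had no surgery. Hippocampi of operated mice were taken 4 days after surgery.

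Axon guidance molecules steer growing axons by attraction and repulsion. Semaphorins act mostly through plexins, the secreted ones with a neuropilin as co-receptor. Ephrins sit on the cell surface and signal into cells that carry Eph receptors, and Eph signals can run in both directions. Slits repel axons through Robo receptors, while netrins attract through Dcc and repel through Unc5 receptors. In the adult hippocampus many of these genes stay active, with roles at dendritic spines and synapses. Several also act outside neurons, in blood vessels, in myelin-forming oligodendrocytes and in immune cells.

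Counts on genes summed to between 19743388 and 27254655 per mouse, and the 69 genes took 0.454% to 0.496% of them. Markers of hippocampal principal neurons summed to 2803 to 2992 CPM (each count divided by the TMM-adjusted library size, times 1e+06) in every mouse, so that these markers were present in all libraries. Whether adjoining cortex was included was not tested. Marker sums of other cell types moved with the groups. Oligodendrocyte markers fell (11 of 12 tested genes, 0 rose), with sums of 5080 to 6458 CPM in SAH mice and 7453 to 10287 CPM in control mice, highest in Sham 7. Meningeal fibroblast markers rose (10 of 12, 211 to 429 CPM against 149 to 201 CPM), as did 6 of 10 for microglia and macrophages, 4 of 8 for pericytes and smooth muscle and 3 of 9 for endothelium (149 to 284 CPM against 133 to 183 CPM). Choroid plexus markers passed the test in 0 of 10 genes, but their sum differed widely between mice of a group, at 110, 228, 1281 and 895 CPM in SAH 1 to 4, at 222, 62.1 and 858 CPM in Sham 5 to 7 and at 48.9 to 72.8 CPM in the Naive mice. Of the other lists, 1 of 8 astrocyte markers and 1 of 11 principal neuron markers rose, 1 of 8 interneuron markers fell, and 0 of 6 thalamic and habenular, 0 of 6 oligodendrocyte precursor and 0 of 2 tested blood cell genes passed. In whole tissue, fewer cells of a type and less RNA per cell cannot be told apart.

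The hippocampus expressed every family. Levels between genes are given as CPM per kilobase of exon, as means over the 6 control mice (Sham and Naive). Epha4, a receptor for both ephrin classes that is known from dendritic spines, had the highest level at 77.8 ± 2.84 CPM per kilobase (SD, n = 6). It was followed by Efnb3, a transmembrane ephrin, at 57.4 ± 1.28, and then by 4 genes whose means lay within 1 SD of a neighbour. These were the Robo ligand Slit1 at 43.5 ± 5.13, the ephrin Efna3 at 42.1 ± 3.02, the membrane-anchored semaphorin Sema7a at 39.9 ± 1.6 and the netrin receptor Unc5a at 39.6 ± 1.18 CPM per kilobase. The most abundant plexin was Plxna1 (26.7 ± 2.14) and the more abundant neuropilin was Nrp1 (24.6 ± 1.64).

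In all, 26 of the 69 genes had at least 10 CPM per kilobase in control mice and 9 had under 1. The low ones were Epha1, Epha2, Epha8, Efna4, Sema3a, Sema3b, Sema3f, Sema3g and Robo4. The highest level was 333 times that of the lowest tested gene, Epha2 at 0.233 ± 0.0567 CPM per kilobase. Summed over a family, EphA receptors (150 ± 5.22 CPM per kilobase) and membrane semaphorins (163 ± 4.57) were the most abundant receptors and ligands, and the 4 netrins together reached 8.42 ± 0.363. Ligand and receptor levels were far apart in the netrin system, whose receptors summed to 64.6 ± 2.96 CPM per kilobase. The median gene of the families had 6.78 CPM per kilobase, against 7.96 over all genes tested. The order of the levels was almost the same in SAH mice (Spearman's rho 0.993 across the 69 genes, which share the same libraries).

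**Figure D1:**
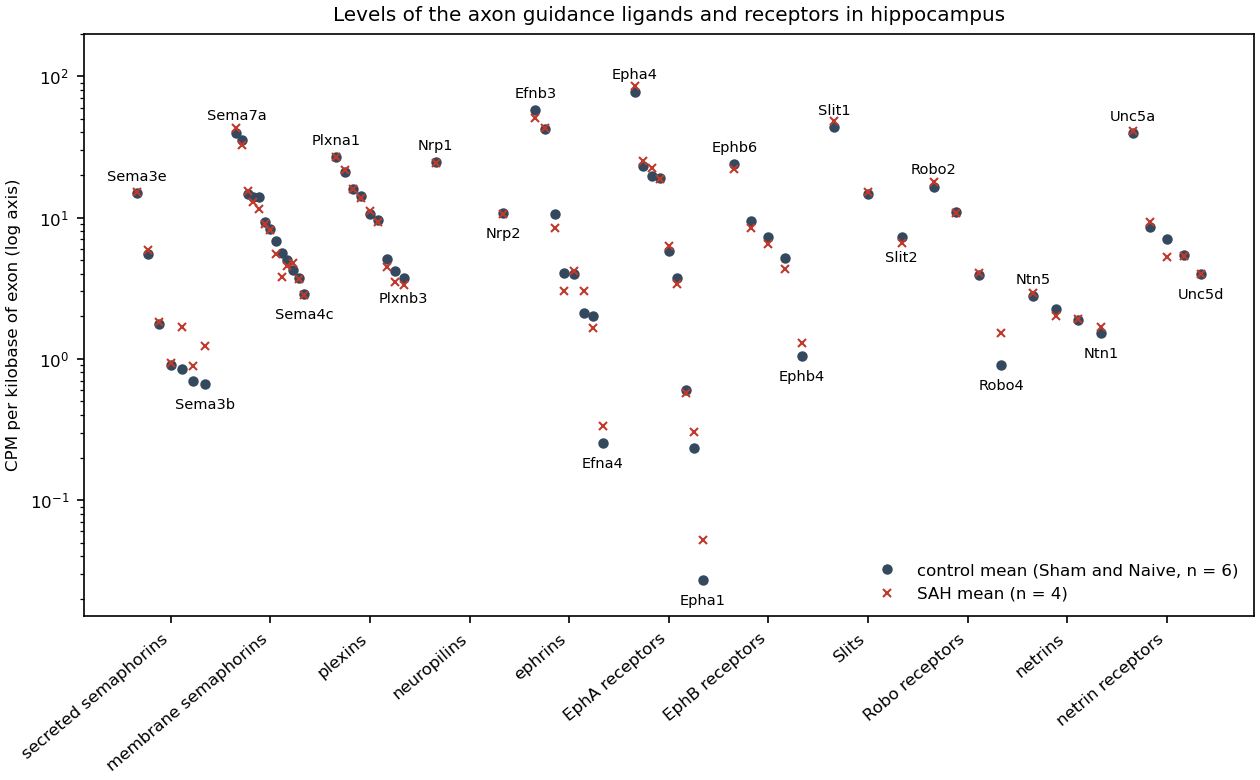
Level of each of the 69 genes in CPM per kilobase of exon on a log axis, grouped by family, with dots for the mean of the 6 control mice and crosses for the mean of the 4 SAH mice; the highest and lowest gene of each family are named. Epha4 stands highest at 77.8 and Epha1 lowest, and dots and crosses lie close together for most genes, with Sema3b, Sema3g and Robo4 among those whose cross lies higher.

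Did guidance genes change 4 days after subarachnoid hemorrhage? The 4 SAH mice were set against the 6 control mice by edgeR's quasi-likelihood test fitted on all genes, and a gene was called past the threshold at an adjusted p under 0.10. Of the 69 genes, 68 passed the filter on low counts; Epha1, with 1 to 9 counts per mouse, did not. Called were 7 of the 68 (10.3%), against 4.68% of all genes tested. Efna1, Sema3b and Sema3g rose (3.13% of all genes tested did), and Sema6a, Unc5b, Sema4d and Efna2 fell (1.54% did). Changes are given on the log2 scale as the fitted difference with its standard error (SE). All 7 are ligands except Unc5b, and 0 plexins, neuropilins, Eph receptors, Slits, Robo receptors or netrins were called (DESeq2, which called 6.87% of all genes tested, called 0 of these too), although 7 of those genes had an unadjusted p under 0.05. With 1 mouse left out, 5 genes rose without SAH 1 and 1 without SAH 4 or Naive 10, where 3.94%, 1.48% and 1.92% of all genes tested rose. Without SAH 2, 7 fell and without SAH 4, 2 fell, where 2.7% and 0.565% of all genes tested did. Calls gained in this way were those of Epha6 and Robo4 without SAH 1, of Efna5, Efnb3 and Sema3a without SAH 2 and of Sema4g without SAH 2 or Sham 7. Over all 68 genes, 21 had an unadjusted p under 0.05, beside 2549 of all 14993 genes tested. Differences on the log2 scale were positive in 34 genes and negative in 34, with a median of -0.0017 beside -0.0024 over all genes tested. This balance holds for the pooled control: 42 were positive and 26 negative against Sham mice alone, and 27 and 41 against Naive mice alone. Between Sham and Naive mice 17 were positive and 51 negative, with a median of -0.065 beside -0.0017 over all genes tested. Whether the genes shifted as a set was not tested.

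**Figure D2:**
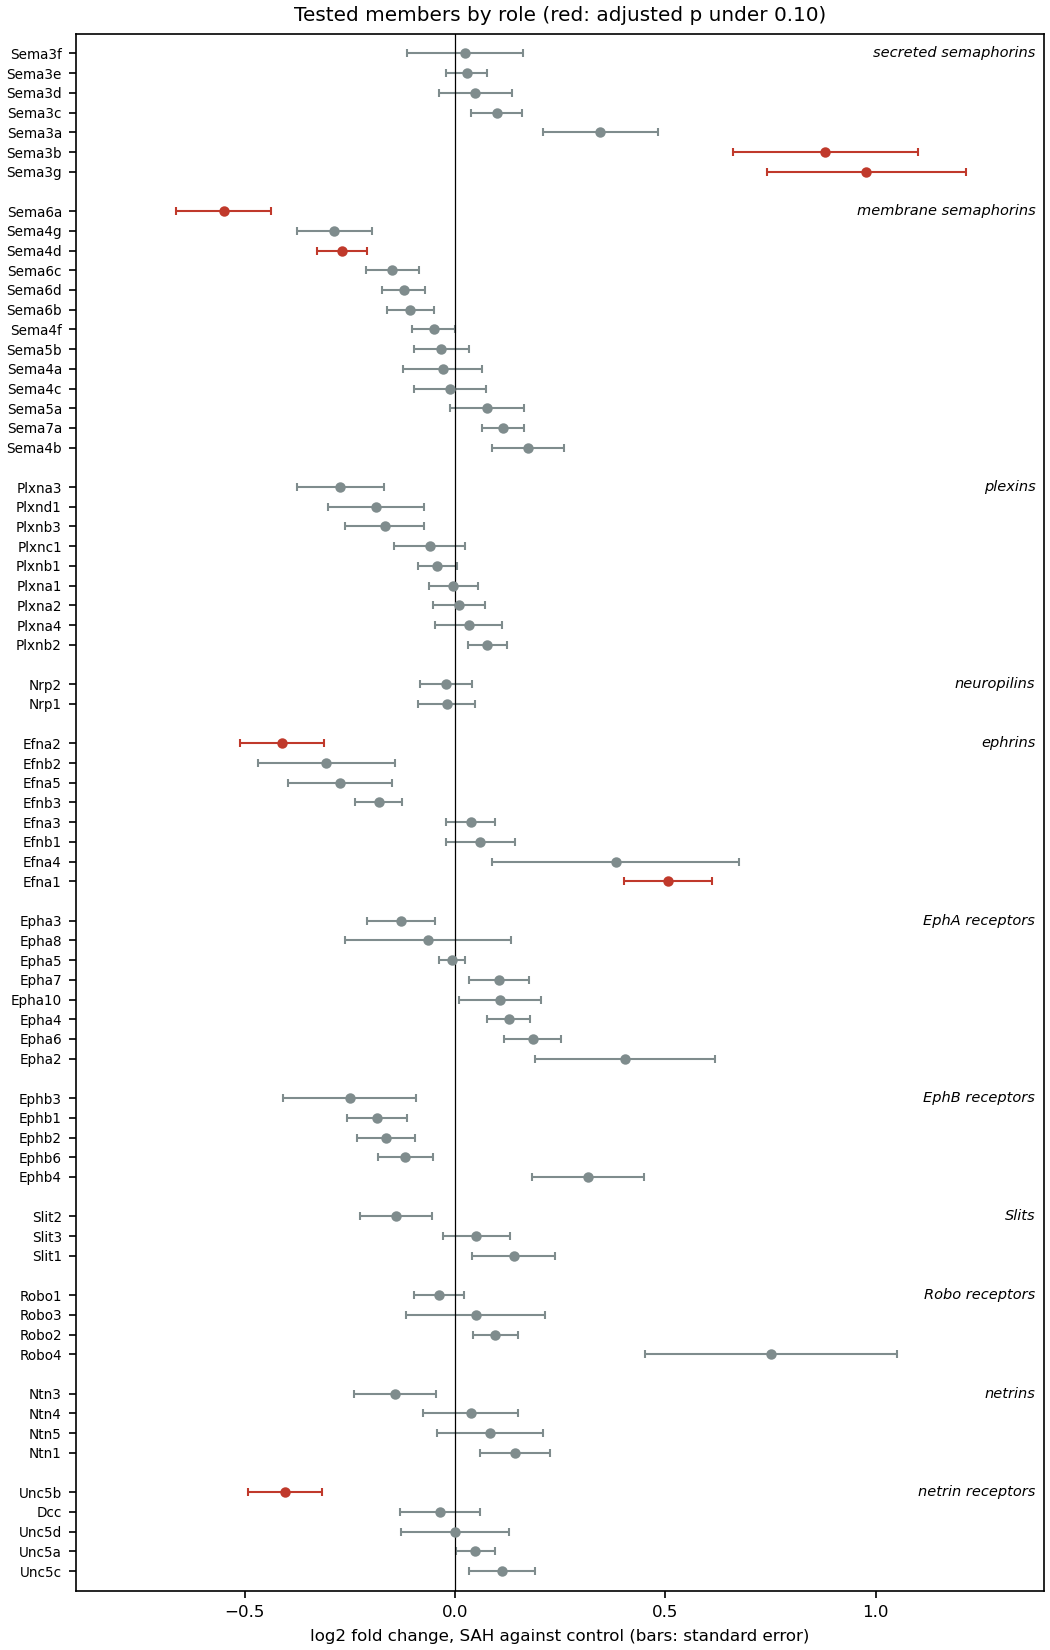
Log2 fold change of SAH against control mice for the 68 tested genes, by family, with bars for the standard error and red for the 7 genes with an adjusted p under 0.10. Red points lie at both sides of 0, from -0.55 for Sema6a to 0.98 for Sema3g, and the grey point farthest from 0 is Robo4 at 0.75.

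In 5 of the 68 genes the 4 SAH mice did not overlap the 6 control mice (7.35%, against 5.2% of all genes tested). Efna1 was the 1 gene with all SAH mice above (1.47%, against 2.83%), and Efna2, Sema4d, Sema6a and Unc5b had all of them below (5.88%, against 2.37%). Sema3b and Sema3g were called with overlapping groups. With fewer mice, groups are free of overlap more often in any gene. Without SAH 1 there were 8 such genes (11.8%, against 8.91% of all genes tested), and without SAH 2 there were 11 (16.2%, against 9.38%).

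Promoter sequences are shown for a pair of genes that fell and a pair that rose, to let the base composition be seen beside the changes. Each is the 250 bases before the start of the gene model in mm9, 5′ to 3′ on the strand of the gene, with capitals for the GC box, the letters GGGCGG on either strand. They lie at chr10:79641977-79642226 (plus strand) for Efna2, chr10:60294330-60294579 (minus) for Unc5b, chr9:107511573-107511822 (minus) for Sema3b and chr14:32030809-32031058 (plus) for Sema3g.
Efna2: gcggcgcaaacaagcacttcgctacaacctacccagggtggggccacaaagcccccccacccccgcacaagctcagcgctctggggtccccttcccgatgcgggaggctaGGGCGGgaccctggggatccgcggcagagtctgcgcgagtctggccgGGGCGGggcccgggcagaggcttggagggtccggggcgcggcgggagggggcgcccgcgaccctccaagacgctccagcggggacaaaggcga
Unc5b: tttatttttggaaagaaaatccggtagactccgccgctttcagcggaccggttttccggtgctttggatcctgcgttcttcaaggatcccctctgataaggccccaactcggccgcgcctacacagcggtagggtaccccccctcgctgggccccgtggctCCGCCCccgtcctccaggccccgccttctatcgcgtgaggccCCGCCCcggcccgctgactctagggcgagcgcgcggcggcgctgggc
Sema3b: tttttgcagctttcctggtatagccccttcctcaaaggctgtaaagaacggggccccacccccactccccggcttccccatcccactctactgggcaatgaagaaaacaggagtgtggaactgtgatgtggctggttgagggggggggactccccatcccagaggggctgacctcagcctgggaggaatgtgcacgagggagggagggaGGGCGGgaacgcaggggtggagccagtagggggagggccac
Sema3g: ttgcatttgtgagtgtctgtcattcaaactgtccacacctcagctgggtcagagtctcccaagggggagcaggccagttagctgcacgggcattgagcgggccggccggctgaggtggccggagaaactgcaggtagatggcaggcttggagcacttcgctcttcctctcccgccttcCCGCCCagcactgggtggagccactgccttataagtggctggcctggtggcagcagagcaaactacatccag

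The Efna2 and Unc5b windows held 2 GC boxes each and had a GC content of 73.6% and 66.8%, and the Sema3b and Sema3g windows held 1 each at 62.4% and 60.4%. These pairs do not stand for the genes that fell and rose as groups: the Sema4d window, of a gene that fell, held 1 GC box at 62.0%, and that of Efna1, which rose, held 1 at 64.8%. A GC box was found in the windows of all 7 called genes and in 52 of all 69 (75.4%), against 41.3% of the 24178 promoters read the same way. The median GC content was 65.2% in the 69 windows and 55.2% in all promoters. Other motifs, searched on both strands, were rare. TATAAA was in 1 window of 69 (against 12.1% of all promoters), TTCNNNGAA, the letters read by STAT factors, in 1 (against 6.88%) and GCGTGGGCG, read by EGR factors, in 2 (2.9%, against 0.716%). None of these 3 motifs was in a window of the 7 called genes. The starts of the Sema3b and Sema4d models lay 12 and 0 bases from a start in the mm9 reference annotation, and that of Efna1 lay 191 bases from one. No run of 50 bases of the Sema3b or Sema4d window was found in RefSeq promoters of these genes. Such a run was found for the other 4 of the 6 windows checked.

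Secreted semaphorins held the largest rises. Sema3g, a class 3 semaphorin that binds neuropilins (chromosome 14, 32031059 to 32042697, plus strand), had 3.29, 4.86, 7.28 and 9.23 CPM in SAH 1 to 4, 2.89, 3.60 and 2.57 CPM in Sham 5 to 7 and 3.35, 3.96 and 2.46 CPM in Naive 8 to 10. SAH 2, 3 and 4 lay above every control mouse, and SAH 1 lay among them. On the log2 scale the gene rose by 0.98 ± 0.237 (SE, adjusted p = 0.0469). The rise was 0.71 without SAH 4 and 0.92 without Naive 10, and not called in either case (adjusted p = 0.170 and 0.105). The summed endothelial markers stood in the same order in the 4 SAH mice, at 149, 185, 224 and 284 CPM, and their part in the result was not tested.

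Sema3b (chromosome 9, 107500005 to 107511572, minus strand), also a secreted ligand of the neuropilin and plexin receptors, had 3.77, 5.00, 6.21 and 6.04 CPM in SAH 1 to 4. It had 2.52, 3.09 and 4.79 CPM in Sham 5 to 7 and 2.22, 2.42 and 2.04 CPM in Naive 8 to 10. Sham 7 was above SAH 1, and every SAH mouse was above all Naive mice. It rose by 0.88 ± 0.220 (SE, adjusted p = 0.0526). The call was lost without SAH 4, Sham 5, Naive 8, Naive 9 or Naive 10 in turn, at 0.80 to 0.85 with adjusted p between 0.104 and 0.164. SAH 3, SAH 4 and Sham 7, the mice with the most Sema3b in their groups (SAH 3 and 4 close to each other), were also those with the largest choroid plexus marker sums. With the choroid plexus score of each mouse in the fit, the difference was 0.49 (adjusted p = 0.349). That fit called 0 of the 68 tested genes and 1.08% of all genes tested, so the lost call was not particular to Sema3b. The part of choroid plexus tissue in the Sema3b result was not tested.

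The other secreted semaphorins did not pass the test. Sema3e, which signals through Plxnd1 and had the highest level of the family, had 98.7 to 108 CPM in SAH mice and 93.5 to 111 CPM in control mice, a difference of 0.03 ± 0.049 on the log2 scale (SE, adjusted p = 0.805). Sema3a, the repellent best known for collapsing growth cones, had 8.37, 5.22, 7.07 and 5.44 CPM in SAH mice against 4.47 to 5.75 CPM in control mice (log2 difference 0.35 ± 0.137 SE, adjusted p = 0.216), and was called without SAH 2 (0.44, adjusted p = 0.0987). All 7 secreted semaphorins had a positive log2 difference, with a median of 0.10, and 2 of them passed the test.

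Of the 13 membrane semaphorins, 2 fell and 0 rose. Sema6a (chromosome 18, 47404908 to 47528522, minus strand) is a transmembrane ligand of plexins A2 and A4. It had 29.6, 31.6, 22.6 and 20.8 CPM in SAH 1 to 4, 35.8, 32.2 and 40.6 CPM in Sham 5 to 7 and 39.9, 42.1 and 39.8 CPM in Naive 8 to 10. SAH 3 and 4 were lowest, and SAH 2 was close below Sham 6. Sema6a fell by 0.55 ± 0.112 (SE, adjusted p = 0.0189), to 0.683 times the control level, and was called with every mouse left out in turn (-0.66 to -0.45).

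Sema4d (chromosome 13, 51796617 to 51889116, minus strand) is a ligand of Plxnb1 made by oligodendrocytes and by lymphocytes. It had 52.9, 52.9, 51.3 and 52.1 CPM in SAH 1 to 4, 59.0, 56.0 and 64.7 CPM in Sham 5 to 7 and 68.4, 68.7 and 61.5 CPM in Naive 8 to 10. The SAH mice were close together and all below the lowest control mouse, Sham 6. Sema4d fell by 0.27 ± 0.059 on the log2 scale (SE, adjusted p = 0.0271) and was called with every mouse left out in turn (-0.30 to -0.24). The summed oligodendrocyte markers, like both genes, were lower in each SAH mouse than in each control mouse, and their part in these results was not tested.

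Among the other 11 membrane semaphorins 0 passed the test. Sema7a, an anchored ligand of Plxnc1 and of integrins, had the highest level per kilobase of exon, though not in CPM. It had 137, 135, 136 and 158 CPM in SAH 1 to 4 and 123 to 136 CPM in control mice. The log2 difference was 0.12 ± 0.050 (SE, adjusted p = 0.258). With 1 mouse left out in turn it ran from 0.06 to 0.14 and was called in 0 fits. Sema4g had 19.8 to 28.1 CPM in SAH mice and 25.1 to 31.5 CPM in control mice (log2 difference -0.29, adjusted p = 0.117), and was called without SAH 2 (-0.38, adjusted p = 0.0309) or Sham 7 (-0.32, adjusted p = 0.0779). Of the 13 genes, 10 had a negative log2 difference, and the rest of the family lay between -0.15 for Sema6c and 0.17 for Sema4b.

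Of the 8 ephrins, 1 rose and 1 fell. Efna1 (chromosome 3, 89075652 to 89084873, minus strand), an anchored ligand of EphA receptors first known as a gene that endothelial cells switch on with tumor necrosis factor, had 4.84, 4.52, 5.41 and 4.96 CPM in SAH 1 to 4. It had 3.30, 3.68 and 3.62 CPM in Sham 5 to 7 and 3.20, 3.14 and 3.82 CPM in Naive 8 to 10. All SAH mice lay above all control mice, and the Sham and Naive mice overlapped. Efna1 rose by 0.51 ± 0.104 (SE, adjusted p = 0.0191), with 4.93 ± 0.366 CPM (SD, n = 4) on average against 3.46 ± 0.283 CPM (SD, n = 6), and was called with every mouse left out in turn (0.46 to 0.55). Among the SAH mice, SAH 3 was highest in Efna1 and SAH 4 in the summed endothelial markers, whose part in the result was not tested.

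Efna2 (chromosome 10, 79642227 to 79652755, plus strand), another EphA ligand, had 6.72, 7.61, 5.36 and 6.12 CPM in SAH 1 to 4. It had 8.5, 9.01 and 8.41 CPM in Sham 5 to 7 and 8.84, 9.20 and 7.73 CPM in Naive 8 to 10. All SAH mice were below all control mice, with SAH 2 close to Naive 10. Efna2 fell by 0.41 ± 0.10 on the log2 scale (SE, adjusted p = 0.0474). It was not called without SAH 4 (-0.38, adjusted p = 0.141) or without Naive 8 (-0.40, adjusted p = 0.107).

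Efnb3, a ligand of EphB receptors and Epha4 that is known as a midline barrier to axons, had 157, 182, 169 and 142 CPM in SAH mice and 181 to 191 CPM in control mice. The log2 difference was -0.18 ± 0.056 (SE, adjusted p = 0.115). SAH 2 lay among the control mice, and without that mouse the gene was called (-0.24, adjusted p = 0.0230). With any other mouse left out Efnb3 was not called, and its log2 difference was -0.12 at the weakest. Efna4 had 5 to 15 counts per mouse, and its log2 difference was 0.38 ± 0.294 (SE).

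Of 13 tested Eph receptors 0 passed the test. Epha4 had 510, 503, 607 and 532 CPM in SAH 1 to 4 and 461 to 509 CPM in control mice, with SAH 2 among the control mice (log2 difference 0.13 ± 0.051 SE, adjusted p = 0.219). Epha2, a receptor of Efna1, was barely expressed, at 0.870 to 1.36 CPM in SAH mice and 0.715 to 1.29 CPM in control mice (0.40 ± 0.214 SE, adjusted p = 0.360). Epha6, a receptor of ephrins A, had 82.3 to 108 CPM in SAH mice and 77.1 to 89.3 CPM in control mice (0.18, adjusted p = 0.188), and was called without SAH 1 (0.24, adjusted p = 0.0639). In the EphA family, 5 of 8 tested genes had a positive log2 difference.

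In the EphB family, 4 of 5 genes had a negative log2 difference, and Ephb4 a positive one. Ephb4, the receptor of venous endothelium, had 5.27, 5.11, 4.80 and 7.43 CPM in SAH 1 to 4 and 4.06 to 5.33 CPM in control mice (0.32 ± 0.133 SE, adjusted p = 0.246). SAH 4 alone stood above the control mice, and that mouse also had the highest endothelial marker sum. With 1 mouse left out in turn, the log2 difference of Ephb4 ran from 0.15 to 0.38 and was called in 0 fits. Ephb6, a family member without kinase activity and the most abundant of the EphB genes, had 73.8 to 89.2 CPM in SAH mice and 79.1 to 96.5 CPM in control mice (-0.12, adjusted p = 0.379). Ephb1 and Ephb2, receptors at excitatory synapses, differed by -0.19 and -0.16 (adjusted p = 0.200 and 0.243).

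Of the receptors of the semaphorins, 0 of 9 plexins and 0 of 2 neuropilins passed the test. Nrp1 had 126 to 164 CPM in SAH mice and 137 to 163 CPM in control mice (log2 difference -0.02 ± 0.067 SE, adjusted p = 0.906). Nrp2 had 80.7 to 87.6 CPM and 77.4 to 98.9 CPM (-0.02 ± 0.061 SE, adjusted p = 0.891). Plxna1 had 226 to 255 CPM and 224 to 271 CPM, a log2 difference of -0.0036 ± 0.058 (SE, adjusted p = 0.984). Plxna3, a partner of neuropilins, had the largest difference among plexins, with 25.7, 26.6, 19.9 and 24.3 CPM in SAH mice and 24.5 to 35.5 CPM in control mice (-0.27 ± 0.103 SE, adjusted p = 0.197). Over the 9 plexins the log2 differences ran from -0.27 to 0.08.

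Netrin receptors held 1 called gene. Unc5b (chromosome 10, 60225343 to 60294329, minus strand), a repulsive netrin receptor that is also known from blood vessels, had 31.2, 37.5, 26.5 and 28.6 CPM in SAH 1 to 4. It had 39.1, 37.9 and 42.4 CPM in Sham 5 to 7 and 43.2, 45.6 and 38.3 CPM in Naive 8 to 10. All SAH mice were below all control mice, though SAH 2 and Sham 6 nearly met. Unc5b fell by 0.40 ± 0.088 on the log2 scale (SE, adjusted p = 0.0272), and without SAH 4 the difference was -0.37 and not called (adjusted p = 0.111). Oligodendrocyte marker sums were lower in each SAH mouse than in each control mouse and endothelial marker sums overlapped between the groups, and the part of these markers in the result was not tested.

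Unc5a, the most abundant Unc5 gene, had 149 to 174 CPM in SAH mice and 153 to 163 CPM in control mice (0.05 ± 0.047 SE, adjusted p = 0.627), and the attractive receptor Dcc differed by -0.04 (adjusted p = 0.875). Of the netrins, Ntn1, the founding attractant, had 8.72 to 10.9 CPM in SAH mice and 7.98 to 9.45 CPM in control mice (0.14 ± 0.084 SE, adjusted p = 0.417). Ntn5 had the highest netrin level per kilobase of exon, though not in CPM, with 5.59 to 7.28 CPM and 4.89 to 7.67 CPM (0.08, adjusted p = 0.766). The 4 netrins lay between -0.14 and 0.14.

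Slits and Robo receptors did not pass the test. Slit1 had 208, 234, 301 and 261 CPM in SAH 1 to 4 and 203 to 270 CPM in control mice (0.14 ± 0.099 SE, adjusted p = 0.498). Slit2 had 49.4 to 66.9 CPM and 55.1 to 70.7 CPM (-0.14 ± 0.086 SE, adjusted p = 0.435), and Robo2, their most abundant receptor, had 132 to 164 CPM and 128 to 137 CPM (0.10 ± 0.054 SE, adjusted p = 0.391). Robo4, the Robo gene of endothelial cells, had 2.61, 3.68, 8.89 and 8.15 CPM in SAH 1 to 4 against 2.61 to 5.14 CPM in control mice. SAH 3 and 4 stood above all control mice and SAH 1 at their lower end, so that the mean difference of 0.75 on the log2 scale had an SE of 0.300 and an adjusted p of 0.221. Without SAH 1 it was 0.99 and called (adjusted p = 0.0561). With any other mouse left out it was not called, and it was 0.50 at the lowest. SAH 3 and 4 also had the largest endothelial marker sums, whose part in the result was not tested.

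**Figure D3:**
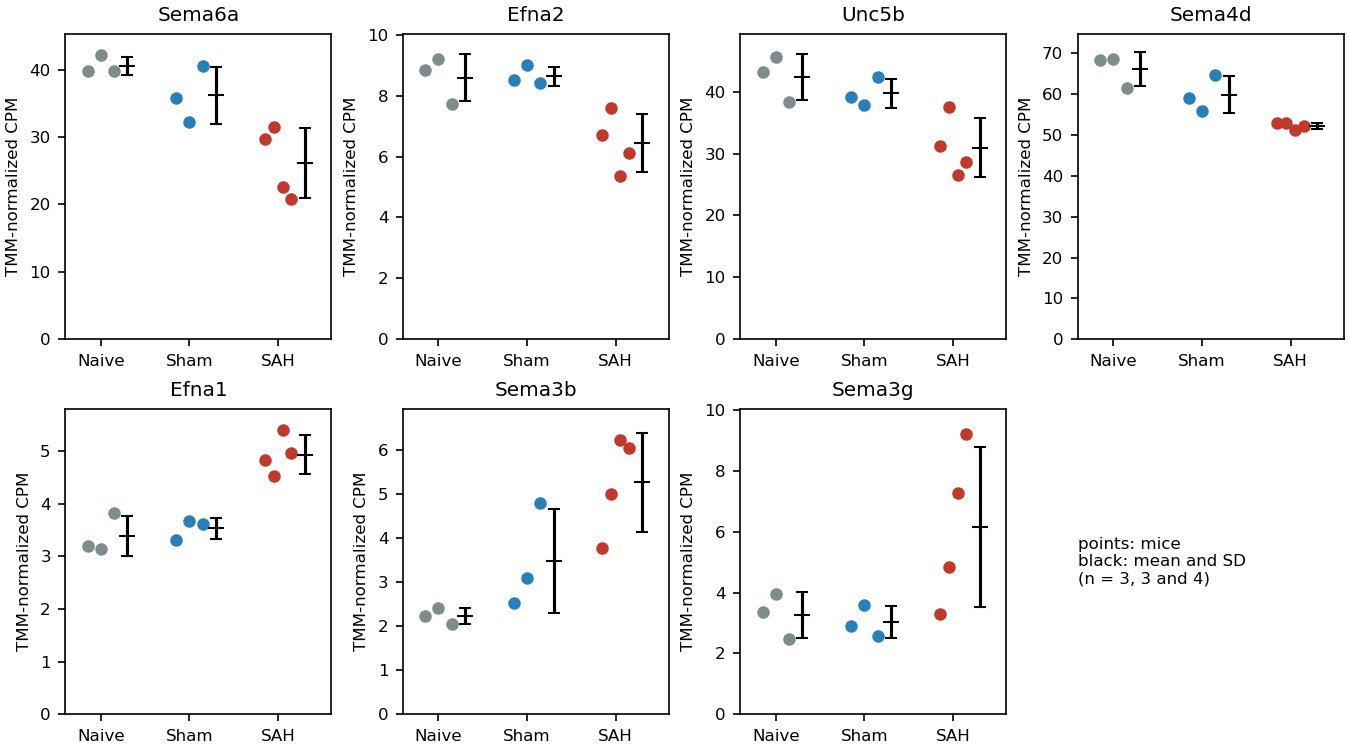
TMM-normalized CPM of the 7 called genes, 1 panel a gene with its own axis from 0, with 1 point a mouse (3 Naive, 3 Sham, 4 SAH) and black bars for the mean and SD of a group. All SAH mice lie below the others in Sema6a, Efna2, Unc5b and Sema4d and above them in Efna1, while in Sema3b the highest Sham mouse at 4.79 and in Sema3g the lowest SAH mouse at 3.29 overlap the other groups.

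How far hemorrhage and surgery can be separated was addressed by the pairwise comparisons, from 1 fit of the 3 groups. SAH mice enter both comparisons with SAH, and Sham and Naive mice enter those with control too, so these comparisons are not independent. Against Sham mice, 0 of the 68 genes were called by edgeR and 3 by DESeq2 (Sema3g, Sema6a and Unc5b), while 0.72% and 2% of all genes tested were called. In edgeR 13 of the 68 had an unadjusted p under 0.05, beside 1467 of all 15134 genes tested. Without SAH 1 edgeR called 1 gene (Sema3g) and without SAH 2 it called 3 (Efna2, Sema6a and Unc5b), beside 1.22% and 1.31% of all genes tested. Against Naive mice, 5 were called (7.35%, against 2.99% of all genes tested): Efna1, Sema3b, Sema4d, Sema6a and Unc5b. DESeq2 called 9, against 4.92% of all genes tested, adding Efna2, Sema3g, Sema4g and the plexin Plxna3. The edgeR count was 0 without Naive 8, 2 without Naive 9, 3 without SAH 4 and 8 without SAH 2, beside 0.714%, 0.973%, 1.77% and 4.53% of all genes tested. Between Sham and Naive mice 0 of the 68 were called by edgeR or DESeq2, while 0.00661% and 0.0132% of all genes tested were called. At an unadjusted p under 0.05 stood 6 of the 68 in edgeR, beside 305 of all 15134 genes tested, and 8 in DESeq2.

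For the 7 genes the 3 comparisons are given side by side, and whether the place of the Sham mice differed between genes was not tested. Efna1 differed by 0.48 ± 0.128 (SE, adjusted p = 0.177) against Sham, by 0.54 ± 0.130 (adjusted p = 0.0634) against Naive and by 0.06 ± 0.140 between Sham and Naive. Efna2 was -0.42 and -0.41 (adjusted p = 0.223 and 0.134), with 0.01 ± 0.128 (SE) between Sham and Naive. Sema3g was 1.03 and 0.93 (adjusted p = 0.224 and 0.164), with -0.10 ± 0.333 (SE) between Sham and Naive.

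Sema3b was 0.60 ± 0.221 against Sham (SE, adjusted p = 0.384) and 1.24 ± 0.236 against Naive (SE, adjusted p = 0.0214). Its Sham mice stood 0.64 above the Naive mice (standard error 0.254, unadjusted p = 0.0260). Sema4d was -0.20 (adjusted p = 0.264) and -0.34 (adjusted p = 0.0159), with -0.14 ± 0.065 (SE) between Sham and Naive. Sema6a was -0.47 (adjusted p = 0.193) and -0.63 (adjusted p = 0.0291), with -0.16 ± 0.136 (SE) between Sham and Naive. Unc5b was -0.36 (adjusted p = 0.224) and -0.45 (adjusted p = 0.0538), with -0.09 ± 0.111 (SE) between Sham and Naive. In all 7 genes 0 of the differences between Sham and Naive passed the threshold. Markers of other cell types moved with the comparisons with Naive mice too. Between Sham and Naive, 0 of 10 choroid plexus, 0 of 12 meningeal fibroblast and 0 of 6 thalamic and habenular markers passed the test, while 6, 4 and 3 of them had an unadjusted p under 0.05 and the median log2 differences were 1.94, 0.45 and -0.30. In SAH against Naive, 2, 10 and 0 passed, with medians of 2.55, 1.42 and -0.37. Of the oligodendrocyte markers, 9 of 12 fell against Naive (median -0.58) and 7 of 12 against Sham (median -0.54), with 0 called between Sham and Naive. Against Naive, 5 of 10 microglia and macrophage and 4 of 8 pericyte and smooth muscle markers rose. Their part in these results was not tested.

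**Figure D4:**
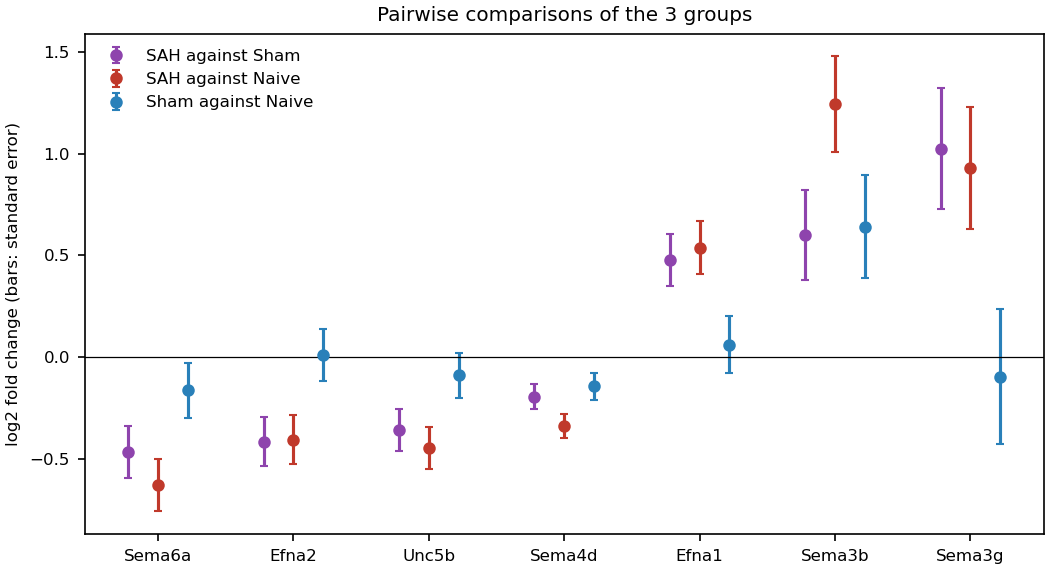
Log2 fold change of the 7 called genes in SAH against Sham (purple), SAH against Naive (red) and Sham against Naive (blue), with bars for the standard error. Purple and red lie at the same side of 0 in each gene, and the blue point is farthest from 0 in Sema3b at 0.64.

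Marker genes of other cell types stood beside several of these changes. When the choroid plexus score of each mouse was added to the fit, an alternative chosen after seeing the data, 0 of the 68 genes were called and 162 of all 14993 genes (1.08%) were. The log2 differences were then 0.45 for Efna1 (adjusted p = 0.177), 0.75 for Sema3g (0.540), 0.49 for Sema3b (0.349), -0.46 for Sema6a (0.143), -0.34 for Unc5b (0.221), -0.26 for Sema4d (0.177) and -0.33 for Efna2 (0.385). All 7 kept their direction.

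**Figure D5:**
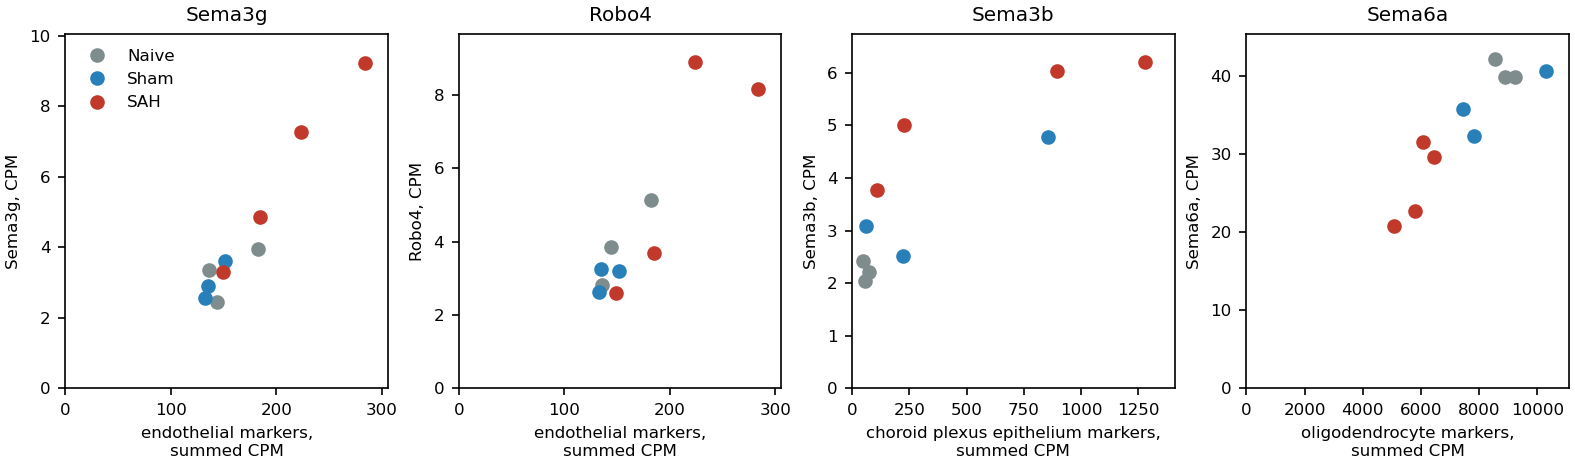
CPM of Sema3g and Robo4 against the summed endothelial markers, of Sema3b against the summed choroid plexus markers and of Sema6a against the summed oligodendrocyte markers, with 1 point a mouse coloured by group. In Sema3g the 4 SAH mice stand in the order of the markers, from 149 to 284 CPM, in Sema3b the Sham mouse at 858 CPM lies close to the SAH mice, and in Sema6a the SAH mice hold the low end of both axes.

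Other genes of the guidance pathways, 97 of 101 listed with enough counts, showed 8 called genes (8.25%, against 4.68% of all genes tested), 2 higher and 6 lower. The count was 1 without Naive 8 or Naive 10, 2 without Naive 9, 3 without SAH 4 and 5 without Sham 5, and in these fits 2.05% to 3.44% of all genes tested were called. Of 14 other ligands, Cxcl12, the chemokine ligand of Cxcr4, rose (0.58, adjusted p = 0.0736) with 53.1, 52.6, 54.2 and 101 CPM in SAH mice against 40.2 to 47.4 CPM in control mice. Draxin, a secreted repellent that binds Dcc, fell (-0.64, adjusted p = 0.0580) with 1.36 to 2.06 CPM against 2.27 to 3.01 CPM. Both were free of overlap, although SAH 4 stood far above the other SAH mice in Cxcl12. Of 21 other receptors and co-receptors 0 passed the test.

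Of 53 intracellular effectors, 1 rose and 4 fell. Fes, a tyrosine kinase bound to plexin A receptors, rose (0.54, adjusted p = 0.0820). Limk1, the kinase that inactivates the actin-severing protein cofilin, fell (-0.25, adjusted p = 0.0652), with 36.5 to 45.6 CPM in SAH mice and 46.2 to 54.0 CPM in control mice. The actin-binding genes Ablim3 (-0.24, adjusted p = 0.0568) and Evl (-0.15, adjusted p = 0.0931) and the Slit and Robo effector Srgap1 (-0.22, adjusted p = 0.0718) also fell. Of 9 myelin growth inhibitors and their receptors, Mag, a myelin protein that stops neurite growth, fell (-0.68, adjusted p = 0.00235), with a mean of 160 ± 25.5 CPM (SD, n = 4) in SAH mice and 255 ± 19.9 CPM (SD, n = 6) in control mice. Mag is also in the oligodendrocyte marker list, 11 of whose 12 genes fell.

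Some genes of the families lie next to each other. Of the 69 genes, 19 had another family gene within 1 Mb on mm9, in 14 pairs. Efna1 lies 34.0 kb from Efna3 and 52.4 kb from Efna4 on chromosome 3, and its log2 difference was 0.51 beside 0.04 for Efna3 and 0.38 for Efna4. Sema3b lies 72.3 kb from Sema3f on chromosome 9, with 0.88 beside 0.02, and Robo4 lies 2.02 kb from Robo3, with 0.75 beside 0.05. Whether the neighbours differ from each other was not tested. Shared exons could blur counts of few genes, since Nrp1 and Ntn3 alone share exon bases with another gene name on the same strand, and counting used the strand.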

How the data were processed

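The authors aligned paired 50-base reads of ribosome-depleted, stranded total RNA to mm9 with STAR, merged lanes and counted unique, unambiguous read pairs per gene name with featureCounts 1.6.2 on UCSC gene models. The files deposited hold raw counts (19743388 to 27254655 per mouse). A count of 0 allows up to 3 counts (0.110 to 0.152 CPM), for counting error only. Libraries were grouped by their labels and checked not to be duplicates.

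From these counts, TMM-normalized CPM, and CPM per kilobase with the exon lengths that the authors deposited, were computed. edgeR 4.0.16 (R 4.3.3) was used with filterByExpr (minimum count 10, minimum total 15), its quasi-likelihood test and the adjustment of Benjamini and Hochberg over all genes, at a threshold of 0.10. SAH was compared with Sham and Naive pooled, as in the study, and pairwise in 1 fit of 3 groups. All p-values are 2-sided. The standard error is the log2 fold change divided by the square root of F. The study used DESeq2, here an alternative (DESeq2 1.42.0). The fit was tested on simulated data.

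The family names, gene lists and tests were chosen with earlier results of these data known. Values in every mouse, or their range, were given for called genes, for the highest and most changed gene of each family and for genes without overlap, and the other genes named were added after their values were seen. Pathway genes were named where called. Alternatives were DESeq2, its size factors or library size for TMM, no filter, 10 counts in every mouse, an adjusted p under 0.05, a robust fit, 3 groups with Sham and Naive averaged, only the compared mice, and each mouse left out. Gene models were compared with the mm9 reference: 1271 of 1350 exons of the 69 genes (94.1%) were equal. Promoters were read from that genome.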

Additional observations from a re-analysis of the deposited data

Results flagged for a closer look

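The 25 genes that were called, highest or most changed in their family, or free of overlap were searched, in SAH and in control mice. Of these 50 sets of values, 2 had a mouse set apart from its group by Dixon's ratio of gap to range. By chance alone about 1 in 20 such groups has a mouse set apart. Nrp2 was low in SAH 1, at 80.7 CPM against 86.7 to 87.6 CPM in the other SAH mice (ratio 0.873). Sema7a was high in SAH 4, at 158 CPM against 135 to 137 CPM (ratio 0.885). Neither gene was called in SAH against control.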

How the results depend on the processing

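The 3 genes that rose and the 4 that fell were the same with DESeq2's size factors, library size alone, no filter, 10 counts in every mouse, a robust fit and 3 groups with Sham and Naive averaged. At an adjusted p under 0.05, Sema3b was lost. DESeq2 added Efnb3 (-0.18, adjusted p = 0.0671) and Sema4g to those that fell. Given the choroid plexus score in the fit, 0 rose and 0 fell, and 1 pathway gene was called, beside 1.08% of all genes tested. DESeq2 called 3 genes against Sham, 9 against Naive and 13 pathway genes in SAH against control, beside 2%, 4.92% and 6.87% of all genes tested. An adjusted p under 0.05 left 3 against Naive (beside 1.72% of all genes tested) and 1 pathway gene (beside 2.46%), and only the compared mice left 3 against Naive (beside 1.89%). With 1 mouse left out in turn, 1 to 5 genes rose (5 without SAH 1, 1 without SAH 4 or Naive 10) and 2 to 7 fell (7 without SAH 2, 2 without SAH 4). Then 0 to 3 were called against Sham (3 without SAH 2), 0 to 8 against Naive (8 without SAH 2, 3 without SAH 4, 0 without Naive 8, 2 without Naive 9), 0 between Sham and Naive, 1 to 12 pathway genes (1 without Naive 8 or Naive 10) and 5 to 11 genes without overlap (11 without SAH 2). The share of all genes called moved too, from 2.05% without SAH 4 to 7.25% without SAH 2 in SAH against control. The causes were not tested. No result named here changed direction past the threshold. Efna4 and Epha1 had 15 counts or fewer per mouse. No paired analysis was possible because the animal numbers differ between groups.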

Other observations

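Among the 68 tested genes, the median coefficient of variation was 8.64% over the 6 control mice and 11% over the 4 SAH mice, beside 6.65% and 9.57% over all genes tested. Naive 9 was the highest of the 10 mice in 20 of the 68 genes (29.4%, against 12.8% of all genes tested), and it was the mouse with the fewest counts. SAH 3 was the lowest in 18 (26.5%, against 26.3%) and the highest in 14 (20.6%, against 24.8%). Against Naive mice, 5 of 97 pathway genes passed the test (5.15%, against 2.99% of all genes tested), namely Bmp7 (1.04, adjusted p = 0.0337), Ptprf (-0.28, adjusted p = 0.0756), Dpysl5 (-0.38, adjusted p = 0.0661), Ablim3 (-0.30, adjusted p = 0.0466) and Mag (-0.73, adjusted p = 0.0046). Against Sham mice 1 of 97 did (1.03%, near the 0.72% of all genes tested), which was Mag (-0.62, adjusted p = 0.0412).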
